A study of Mus musculus with 4 samples.

Results

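The MYC, MAX and MXD network is a family of transcription factors that compete for the same DNA element, and its transcripts were followed here in mouse blood progenitors after a 4 h drug exposure. Its members were named by function: the MYC genes Myc, Mycn and Mycl, the common partner Max, the antagonists Mxd1, Mxd3, Mxd4, Mxi1 and Mnt, and the related partner Mlx. A probe set stood for a gene where the platform annotation gave it exactly 1 symbol. This rule found 9 of the 10 genes, each with 1 probe set, among 30142 genes named on the array. The probe set of Mycl carries that symbol together with the older synonym Mycl1 and so did not meet the rule. Read as Mycl, it lay at 3.70 and 3.46 on the combination arrays, against 3.58 and 3.75 on the vehicle arrays, within the background of the platform.

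RNA came from LK cells of NOD mice, a strain that develops autoimmune diabetes. LK cells lack markers of mature lineages and carry c-Kit, and hematopoietic progenitors are concentrated among them. The combination group held 2 samples kept for 4 h with 10 µM dmPGE2, a stable analog of prostaglandin E2, and 10 µM dexamethasone, a synthetic glucocorticoid. The vehicle group held 2 samples kept equally long with DMSO. The submitters describe the duplicates as biological. No source used here names the animals behind each, so the spread between samples may be partly technical. Each sample was measured on 1 whole-transcript array, values are log2 RMA signals, and differences are combination minus vehicle. Neither drug was measured alone, so their shares cannot be told apart.

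MYC drives growth, ribosome production and cell division, and it binds DNA only as a pair with MAX. The pair recognises the E-box, a short palindromic DNA element, and recruits coactivators. Proteins of the MXD group, MXI1 and MNT also pair with MAX, occupy the same element and bring in the SIN3 and histone deacetylase complex, which opposes MYC. In blood formation, MYC is high in dividing progenitors, while MXD1 is known to accumulate as myeloid cells mature.

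The defining progenitor transcript was present, with Kit at 10.51 and 9.62 on the combination arrays and 10.18 and 10.32 on the vehicle arrays. All 4 progenitor markers had a lower mean in the combination, with summed linear signals of 4581 and 4490 against 4907 and 6547. The groups overlapped for Kit, Cd34 and Flt3, and only those of Myb did not. The highest single value among 23 background probe sets was 5.55. Of 6 measured lymphoid markers, 5 stayed under it on every array, and Il7r, a cytokine receptor chain, lay at 7.24 and 8.21 in the combination against 5.44 and 6.03 in vehicle. Several markers of mature myeloid cells were well above the background probe sets. S100a8 lay between 13.45 and 15.02, and the integrin gene Itgam at 9.59 and 10.19 against 8.82 and 8.46. The neutrophil gene Ly6g stayed under 5.55 on every array. On vehicle 2, Mmp8 (4.34) and Cd177 (5.54) were also under the highest background value, and Ltf (5.60) was just above it. All 5 mast cell and basophil markers were lower in the combination, 3 of them with groups that did not overlap. Of these 3, Gata2 differed by -0.11 and Mcpt8 had a gap of 0.05. Of all named genes with a mean above 5.55, 60.3% were lower and 22.8% did not overlap downward. Samples numbered 1 and 2 differed in their cell type markers in both groups. The summed linear signal of 10 mature granulocyte and monocyte markers was 68172 and 30432 in the combination and 66874 and 24134 in vehicle, and that of 5 erythroid markers was 154375 and 66686 against 188881 and 82072. In both sums the samples numbered 1 were the higher ones. Car1, at 15.98 to 17.50, made up most of the erythroid sum, while Alas2 was higher in the samples numbered 2. Array medians lay between 4.36 and 4.44, and the number of arrays limits the precision.

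No member passed limma's test at an adjusted p of 0.05 over all 65956 features, which 2 features (0.00303%) did. At an unadjusted p under 0.05, limma placed Myc and Max lower and Mxd1 higher, against 2.65% of all named genes lower and 2.66% higher. Of the 9 members, 5 were lower in the combination and 4 higher, with a median difference of -0.08 against 0.01 over all named genes. The groups did not overlap for 4 lower members (Myc, Mycn, Max, Mlx) and 3 higher ones (Mxd1, Mxd4, Mnt), where 15.4% of named genes did so downward and 19.7% upward. Of the 9 members, Mxd3 alone had a mean under 5.55. Among the 12615 named genes with a mean above every background probe set, 22.8% did not overlap downward and 12.7% upward, and at an unadjusted p under 0.05 the shares were 5.14% and 3.53%. With 2 samples against 2, an exact two-sided permutation test cannot give a p below 0.33, so all tests here come from the fit across the whole array.

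**Figure D1:**
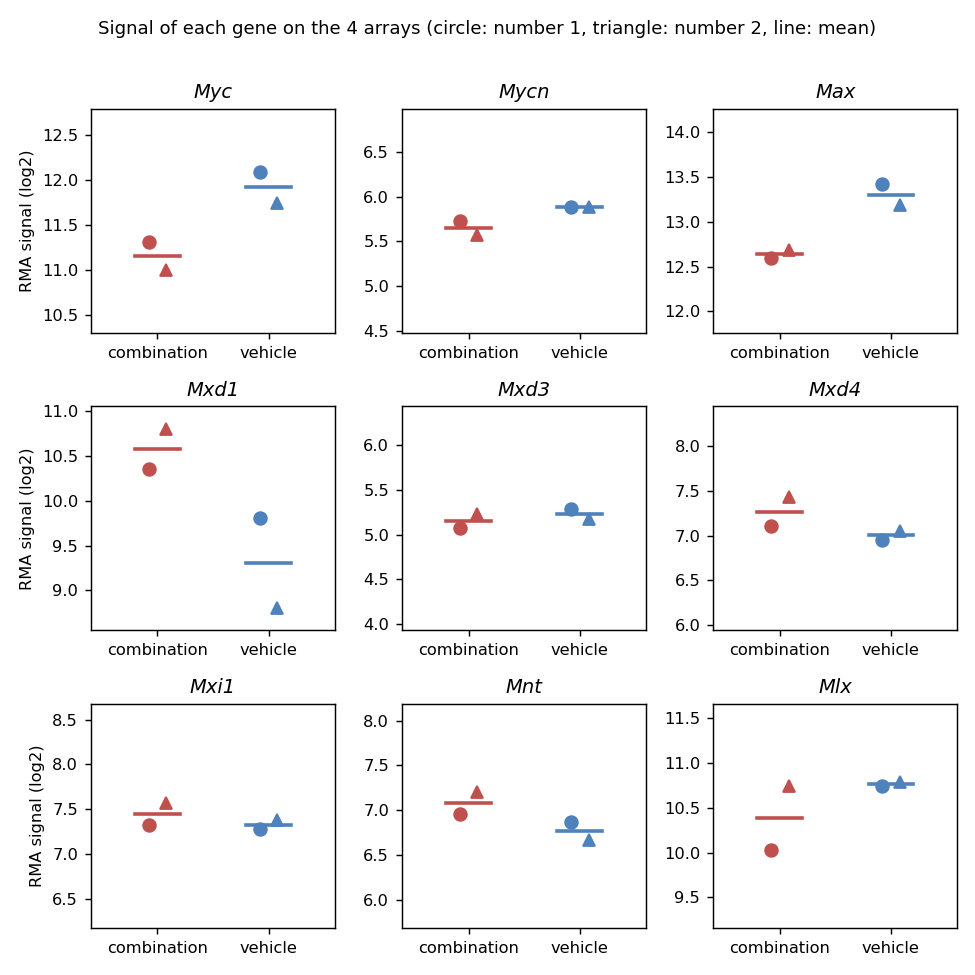
RMA signal (log2, vertical axis) of the 9 genes on each array, combination in red at the left of each panel and vehicle in blue at the right; circles are samples numbered 1, triangles samples numbered 2 and lines group means, and all panels span the same number of log2 units. Myc and Max lie lower on both combination arrays, and Mxd1 lies higher on both, with its vehicle arrays at 9.80 and 8.80.

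Myc, which encodes the c-MYC factor itself, lay at 11.31 and 11.00 on the combination arrays and at 12.09 and 11.75 on the vehicle arrays. Both combination values were under both vehicle values, with a gap of 0.44 between the groups. The difference was -0.77 (SE 0.20, 95% interval -1.29 to -0.25), or 1.70-fold lower in the combination. In limma its unadjusted p was 0.013 and its adjusted p 0.78, and 2.31% of named genes had a difference at least as large in either direction. In bulk samples, fewer cells of a type that carries the transcript and less transcript per cell cannot be told apart.

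Mycn, the MYC paralog best known from neuronal and stem cells, was far closer to the background. It stood at 5.72 and 5.57 in the combination against 5.88 and 5.88 in vehicle. Its difference of -0.23 had an interval from -0.59 to 0.12 (limma adjusted p = 0.94) and includes 0. All 4 values lay just above the highest background probe set, where RMA understates differences.

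Max, the obligate partner of MYC and a partner of its antagonists, lay at 12.59 and 12.68 on the combination arrays. The vehicle arrays read 13.43 and 13.18, so the groups were 0.50 apart. Max was 1.59-fold lower, a difference of -0.67 (SE 0.15, 95% interval -1.06 to -0.27) with a limma unadjusted p of 0.0084 and an adjusted p of 0.69. This was the smallest p among the members, and 1.21% of named genes had a p no larger.

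Mxd1, the antagonist induced in maturing myeloid cells, had the largest difference among the members. It reached 10.35 and 10.80 with the combination, against 9.80 and 8.80 with vehicle. Both combination arrays were higher, and the SD was 0.32 over the combination arrays and 0.71 over the vehicle arrays. The difference was 1.27 (SE 0.38, 95% interval 0.26 to 2.29), or 2.42-fold higher, with a limma unadjusted p of 0.024 and an adjusted p of 0.81. Of all named genes, 0.733% differed by at least as much.

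The size of the Mxd1 difference depended on the vehicle array used. It was 0.77 without vehicle 2 and 1.77 without vehicle 1, and it was 1.50 without combination 1 and 1.05 without combination 2. Vehicle 1, the higher Mxd1 value of its group, was also the vehicle array with the larger granulocyte and monocyte marker sum. In the combination group the order was the other way, with the lower Mxd1 value in the sample of larger marker sum. Between the groups, 8 of the 10 markers were higher in the combination, against 39.7% of named genes with a mean above 5.55. Only Mmp8 and Itgam were higher without overlap. The other higher markers each differed by less than their SE, such as Camp (0.03, SE 2.42). Csf1r went the other way without overlap, at 8.39 and 8.67 in the combination against 9.12 and 9.77 in vehicle, a difference of -0.91. Ly6g was lower too, at background. The part of these cells in the Mxd1 difference was not tested.

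The other MXD genes differed little. Mxd4 lay at 7.10 and 7.43 in the combination and at 6.95 and 7.05 in vehicle, a difference of 0.26 (95% interval -0.18 to 0.70). Mxi1, an MXD-type antagonist named for its interaction with MAX, stood at 7.32 and 7.57 against 7.27 and 7.38, and its groups overlapped. Its difference of 0.12 had an interval from -0.28 to 0.53. Mxd3, the MXD gene known to be expressed in dividing cells, was at 5.07 and 5.24 against 5.29 and 5.17, and all of these values were under the highest background probe set. Limma's adjusted p was 0.94, 0.97 and 0.98 for Mxd4, Mxi1 and Mxd3.

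Mnt, a broadly expressed repressor that pairs with MAX or MLX, lay at 6.95 and 7.20 with the combination and at 6.87 and 6.67 with vehicle. The groups were separated by 0.08, and the difference was 0.31 (95% interval -0.12 to 0.74, limma adjusted p = 0.93). The intervals of Mxd3, Mxd4, Mxi1 and Mnt all include 0.

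Mlx encodes a MAX-like protein that pairs with the glucose-sensing factors MondoA and ChREBP, and also with MXD1, MXD4 and MNT. It was at 10.03 and 10.74 on the combination arrays and at 10.75 and 10.79 on the vehicle arrays. Only combination 1 was clearly lower, since combination 2 lay 0.0091 under the lower vehicle array. The difference of -0.38 (95% interval -1.08 to 0.32, limma adjusted p = 0.95) became -0.03 without combination 1 and -0.73 without combination 2.

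**Figure D2:**
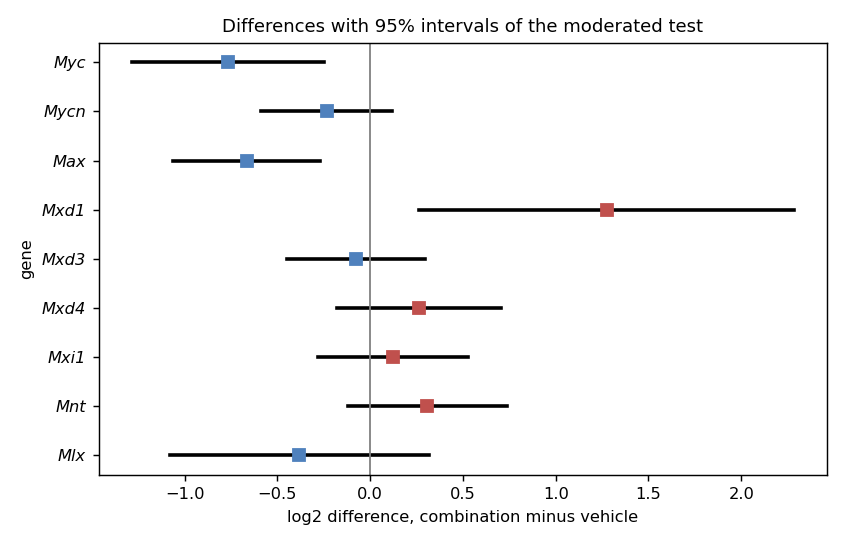
Log2 difference, combination minus vehicle (horizontal axis), of each gene (vertical axis), with squares at the estimate and lines for limma's 95% interval; red squares are higher and blue ones lower in the combination. The intervals of Myc, Max and Mxd1 lie off 0 before adjustment for the number of features, and the other 6 include it.

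**Figure D3:**
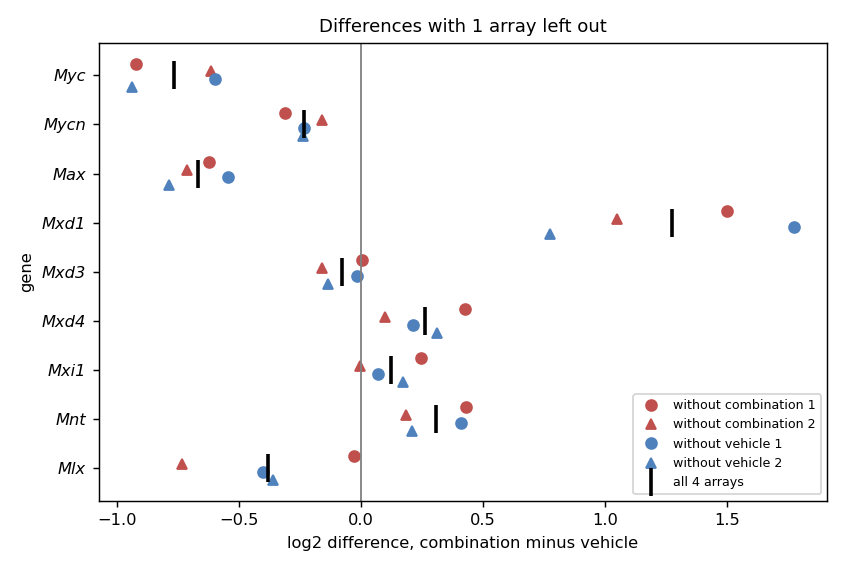
Log2 difference, combination minus vehicle (horizontal axis), of each gene (vertical axis) with 1 array left out; red and blue symbols mark a combination or a vehicle array left out, circles number 1 and triangles number 2, and black ticks all 4 arrays. Myc and Max stay below 0 in each of the 4 fits and Mxd1 above it, while Mxd1 ranges from 0.77 to 1.77 and Mlx from -0.73 to -0.03.

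Leaving out 1 array at a time kept the sign of Myc (-0.94 to -0.60), Max (-0.79 to -0.55) and Mxd1. The unadjusted p of Max in limma stayed under 0.05 in all 4 of these fits. That of Myc was 0.059 without combination 2 and 0.065 without vehicle 1, and that of Mxd1 was 0.099 without combination 2 and 0.052 without vehicle 2.

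Because all these proteins act through the E-box, promoters of the network's own genes were searched for it. RefSeq windows (GRCm38.p6) of 300 bases, from 250 before to 50 after an annotated start site, were searched for Mycn, Mycl, Max, Mxd1, Mxd3, Mxd4, Mnt and Mlx, with 1 window each, and for Mxi1, with 3. The promoter of Myc was not examined. The E-box CACGTG, which reads the same on both strands, occurred in the windows of 4 genes, Max, Mlx, Mnt and Mxd4, in 4 of 11 windows, against 7.15% of all 32851 promoter windows. The sites are shown to place the element in these 4 genes, with 12 bases on either side and the E-box in capitals, on the strand of the gene.
Max, chr12:76962234-76962263, minus strand: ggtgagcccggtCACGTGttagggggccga
Mlx, chr11:101087238-101087267, plus strand: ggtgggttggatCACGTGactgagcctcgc
Mnt, chr11:74830789-74830818, plus strand: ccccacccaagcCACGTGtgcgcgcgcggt
Mxd4, chr5:34187912-34187941, minus strand: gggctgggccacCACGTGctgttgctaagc

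The E-box began 3 bases before the start site in Max, 40 before it in Mlx, 123 in Mnt and 219 in Mxd4. Of these 4 genes, Max and Mlx were lower in the combination (-0.67 and -0.38) and Mnt and Mxd4 higher (0.31 and 0.26). The intervals of Mlx, Mnt and Mxd4 include 0. The 11 windows were rich in G and C (55% to 76.7%, against a median of 52.7% over all windows). The full cAMP response element TGACGTCA occurred in 1.79% of all windows and the palindromic consensus of the glucocorticoid response element in 0.0487%, and neither, searched on both strands, was in any of the 11 member windows.

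Genes that MYC is known to induce were mostly lower. This list, like the others, was chosen with earlier results of these data known, and the brighter background was added after seeing the data. Its genes share the same 4 arrays and are not replicates, so the counts only describe the list. Of 32 measured, 29 were lower and 3 higher (90.6% lower, against 46.8% of all named genes and 60.3% of the 12615 brighter ones). The share of lower genes was thus larger among brighter genes, and most genes of the list lay well above the cut of 5.55. No background matched to the list's own brightness was used, so a shift that grows with brightness cannot be told apart here. The list's median difference was -0.22, against 0.01 over all named genes and -0.05 over the brighter ones. None passed over all features. At an unadjusted p under 0.05 in limma, 8 were lower and 0 higher, against 5.14% lower among the brighter genes. The groups did not overlap for 19 lower genes, against 22.8% of the brighter genes. Leaving out 1 array gave 26 to 28 lower genes, and 4 to 6 of them at that p. The progenitor markers and the mast cell and basophil markers were all lower too, with overlapping groups for Kit, Cd34, Flt3, Cpa3 and Fcer1a. Summed linear signals were 4581 and 4490 against 4907 and 6547 for the first and 29967 and 35607 against 36818 and 51158 for the second. The part of these markers in the list's values was not tested.

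Shmt2, the mitochondrial enzyme that feeds serine carbon into nucleotide synthesis, differed most clearly. It lay at 10.78 and 10.80 in the combination and at 12.00 and 11.83 in vehicle, a difference of -1.13 (SE 0.14, limma adjusted p = 0.34). Polr1b, a core subunit of RNA polymerase I, stood at 8.48 and 8.59 against 9.43 and 9.29, 1.77-fold lower (limma adjusted p = 0.49). Tfrc, the transferrin receptor through which cells take up iron, stood at 10.03 and 9.93 against 10.79 and 10.74, 1.73-fold lower (limma adjusted p = 0.49). Erythroid cells also use this receptor heavily, and all 5 measured erythroid markers were lower in the combination, with overlapping groups. Their part in the Tfrc value was not tested. The targets Odc1, Npm1 and Ccnd2 differed by -0.08, -0.11 and 0.09, and their groups overlapped. These 3 were chosen after their values were seen.

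Of 10 genes that MYC is known to repress, 7 were higher (70.0%, against 53.2% of all named genes and 39.7% of the brighter ones), with a median of 0.08. Cdkn2b, counted among the higher ones, and Cdkn1c and Gas1 were under the highest background probe set on every array. The count of higher genes was 5 to 8 with 1 array left out, lowest without combination 2, and the median was 0.02 with arrays centred on their medians. At an unadjusted p under 0.05 in limma, 2 were higher and 0 lower, against 3.53% higher among the brighter genes. The groups did not overlap for 2 higher genes, against 12.7% of the brighter genes. Cdkn1b encodes p27, an inhibitor of cell cycle kinases that MYC holds down. It was at 7.34 and 7.79 in the combination and at 6.92 and 7.03 in vehicle, a difference of 0.59 (95% interval 0.07 to 1.11, limma adjusted p = 0.85). Thbs1, the angiogenesis inhibitor thrombospondin 1, was at 16.10 and 16.76 against 12.02 and 11.03 (limma adjusted p = 0.19). Ndrg1, a stress and differentiation gene, was at 8.34 and 9.54 against 7.51 and 8.78, and its groups overlapped.

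Targets of the MLX arm split. Of 7 measured, 5 were lower (71.4%, against 60.3% of the brighter genes) and 2 higher, with a median of -0.18. Txnip and Arrdc4, a pair of arrestin-family genes that restrain glucose uptake and are induced by MondoA with MLX, were the higher ones. Txnip lay at 13.56 and 13.63 in the combination against 12.17 and 11.50 in vehicle, and Arrdc4 at 5.67 and 6.81 against 5.07 and 5.18. For Arrdc4, both vehicle values were under the highest background probe set, and combination 1 was just above it. Limma's adjusted p was 0.41 and 0.89. Pklr, the pyruvate kinase of liver and red cells and a ChREBP target, was at 8.10 and 7.20 against 9.65 and 8.14 (limma adjusted p = 0.92). The erythroid marker sums, mostly Car1, ran in the same order as Pklr in each group, as did Klf1, Epor and Gata1. Alas2 ran the other way, at 7.62 and 9.42 against 8.16 and 9.49. The part of erythroid cells in the Pklr values was not tested.

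**Figure D4:**
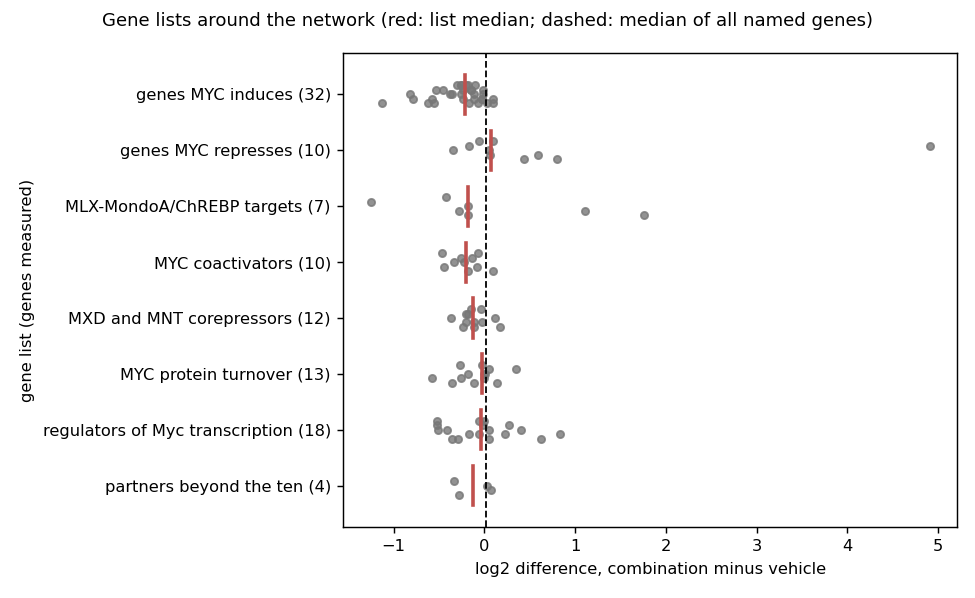
Log2 difference, combination minus vehicle (horizontal axis), of each measured gene (grey point) in 8 gene lists around the network (vertical axis, with the number of genes), with the list median in red and the median of all named genes dashed. The genes MYC induces lie mostly left of the dashed line, with a median of -0.22, and Thbs1 stands alone near 4.91 in the list of genes MYC represses.

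None of the transcripts of proteins that work with the network passed limma's test over all features. Of 4 further partners, Mga, a MAX-binding repressor, differed by -0.28, and Zbtb17, which encodes the MIZ1 factor through which MYC represses, by -0.34. The MondoA gene Mlxip differed by 0.07, while the ChREBP gene Mlxipl stayed at background in both groups. Of 10 measured MYC coactivators, 9 were lower, with a median of -0.20. Of the brighter genes 60.3% were lower, with a median of -0.05. The acetyltransferase gene Kat2a stood at 9.79 and 9.60 in the combination against 10.09 and 10.18 in vehicle (-0.44, limma adjusted p = 0.84), and Ruvbl1 and Kat5 differed by -0.46 and -0.33. Of 12 measured parts of the SIN3 corepressor, which the MXD proteins recruit, 10 were lower, with a median of -0.13, beside the same 60.3%. The groups did not overlap for 2 lower parts (16.7%, against 22.8% of the brighter genes) and 1 higher one. With 1 array left out, 8 to 10 parts were lower. Suds3, Rbbp7 and Ing2, with the smallest p there, differed by -0.36, -0.24 and -0.20, and 0 of the 12 had an unadjusted p under 0.05 in limma.

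Genes that set the life of MYC protein had a median of -0.03 over 13 measured. Skp2, a ubiquitin ligase subunit that targets MYC, was at 8.20 and 8.70 in the combination against 8.83 and 9.24 in vehicle, a difference of -0.58 (95% interval -1.23 to 0.06). Cip2a, an inhibitor of the phosphatase that destabilises MYC, differed by -0.27, and Fbxo32, a ubiquitin ligase gene at background level, by 0.34. Among 18 measured factors known to act on the Myc gene, 11 were lower and 7 higher, with a median of -0.04. That is 61.1% lower, near the 60.3% of the brighter genes. Prdm1, whose product BLIMP1 represses Myc in maturing lymphoid cells, was at 5.06 and 5.67 against 4.46 and 4.59, with all but the second combination value under the highest background probe set. Myb, a progenitor factor, was at 11.22 and 11.15 against 11.53 and 11.85, and Tcf7l2, a Wnt effector, at 6.15 and 6.51 against 5.56 and 5.86. Limma's adjusted p was 0.80, 0.84 and 0.84 for Prdm1, Myb and Tcf7l2.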

How the data were processed

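Per the submitters' processing notes, the authors used RMA and the Transcriptome Analysis Console, and the deposited values are log2 signals. RMA corrects background, normalizes arrays to 1 distribution and summarises probe sets, so a change in total RNA is not seen and dim genes are compressed. No source used here states versions or a genome build. Of 72688 rows, 6732 control rows, recognised by their identifiers, were left out. Of the 65956 features, 30604 had 1 symbol, 2146 had several and stayed unnamed, and 33206 had none. Entrez identifiers matched RefSeq genes (GRCm38.p6) for 22818. The feature with the highest mean stood for a gene.

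Combination and vehicle arrays were compared with limma 3.58.1 in R 4.3.3 (lmFit, eBayes), two-sided, with a single group term and Benjamini-Hochberg adjustment across all features. The residual degrees of freedom were 2, and the prior added 2.59. The fit was tested on simulated data. Named were all members and, from each pathway list, the 3 genes with the smallest p. Markers were named after their values were seen. The members and lists were chosen with earlier results of these data known. Genes of the lists without a single-symbol feature are not analysed here. The fit was repeated with replicate number as a block, a trend or robust prior, filters on dim features, other scalings, control rows kept and each array left out in turn. The brighter genes were added as a background after seeing the data.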

Additional observations from a re-analysis of the deposited data

How the results depend on the processing

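With 12 alternatives, the members past the adjusted threshold of limma stayed at 0, and 106 of 108 member differences kept their sign. The block, the trend or robust prior, the filters and the control rows leave a difference unchanged by construction. Only the other scalings and the fits with 1 array left out could change a sign. The exceptions were Mxd3, at 0.0048 without combination 1, and Mxi1, at -0.0021 without combination 2. With 1 array left out, Mxd3 ranged from -0.16 to 0.0048 and Mxi1 from -0.0021 to 0.25. Over all features the count past the threshold was 2. It was 19 in the fit with a replicate block, 0 with an intensity trend, 0 with either filter on dim features, 0 after a second quantile normalization, 0 with control rows kept and 0 to 0 with 1 array left out, where fewer degrees of freedom remain. Same-numbered samples deviated together (r = 0.328 over features), but the labels give the number no meaning. With the block, limma's unadjusted p was 0.0038 for Myc, 0.011 for Max and 0.021 for Mxd1, against 0.013, 0.0084 and 0.024 without it. It thus fell for Myc, rose for Max and hardly moved for Mxd1. Limma's adjusted p with the block was 0.30, 0.43 and 0.51. Each member has 1 probe set, so averaging probe sets changed nothing. The count of induced MYC targets at an unadjusted p under 0.05, examined after seeing the data, was 4 without combination 2, 4 without vehicle 1 and 4 without vehicle 2, against 8.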
